A study of Mus musculus with 2 samples.

Results

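Dicer1 encodes the ribonuclease that cuts microRNA precursors, and it is the gene knocked out in this series. The locus was taken as the mm9 window from 105900000 to 106010000 on chromosome 12, and its members are all listed events of 3 histone marks inside it. The window held 3 events of 21418 in the series: 2 H3K4me3 events with more reads in WT and 1 H3K27ac event with more reads in KO. No H3K36me3 event was listed in it in either direction.

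Monoclonal immortalized mouse mesenchymal stromal cells without Dicer (Dicer KO, 1 sample) were set against matching cells with the gene (Dicer WT, 1 sample). The sample titles call both fibroblasts. Both labelled samples are chromatin immunoprecipitations for H3K27ac, while the H3K4me3 and H3K36me3 lists carry the genotype names only. The submitters' design names 2 replicates for KO and WT each, but a list holds a single value of each genotype per event, so no replicate error could be given and no difference was tested. The labels do not say which part of Dicer1 was removed, on how many copies, or how many clones stand for each genotype. Total reads per library are unknown, so the reads at each event set the precision.

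H3K4me3 is a mark of gene starts that are active or poised, H3K27ac marks active promoters and enhancers, and H3K36me3 is laid down along the bodies of transcribed genes. Dicer works in the cytoplasm, where it cuts hairpin precursors into microRNA duplexes with its paired RNase III domains, and cells without it lose most mature microRNAs. Mouse cells without Dicer are commonly made with the Cre recombinase, which removes exons flanked by loxP sites and leaves the rest of the gene in place.

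The start of a gene is where H3K4me3 is usually found, so the sequence in front of the Dicer1 start is shown here as the place to which the events below can be compared. These are the 250 bases before the start on the minus strand, from RefSeq in build GRCm38.p6, where they lie at chr12:104751953-104752202. These coordinates belong to another build and cannot be set against the mm9 event positions. Capitals mark CG dinucleotides.
Dicer1 promoter: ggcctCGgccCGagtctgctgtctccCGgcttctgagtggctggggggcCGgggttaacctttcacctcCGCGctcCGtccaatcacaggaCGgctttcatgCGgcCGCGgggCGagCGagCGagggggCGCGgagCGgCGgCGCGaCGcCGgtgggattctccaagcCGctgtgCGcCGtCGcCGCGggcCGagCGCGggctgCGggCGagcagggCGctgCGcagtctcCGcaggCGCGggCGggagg
The stretch held 39 CG dinucleotides, against a median of 6 over the same 250 bases of 32851 RefSeq promoters, and 1.56% of these promoters had at least as many. Its GC content was 76.0%.

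Both H3K4me3 events of the Dicer1 window had almost all of their reads in WT. The event at 105932460 on chromosome 12 had 12.4 unscaled KO reads, with a 95% counting interval of 6.20 to 20.96, and 493 WT reads (450 to 539). At the scale of the list, where KO reads were multiplied by 0.461, the KO-to-WT ratio was 0.0116 (0.00576 to 0.0198), or 86.5-fold lower in KO (50.6 to 174). The intervals of the KO and WT reads were far apart.

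The event at 105931999 on chromosome 12 lay 461 bp from it and had 3.69 unscaled KO reads (1.09 to 10.2) and 290 WT reads (258 to 325). Its KO-to-WT ratio was 0.00587 (0.00172 to 0.0165), or 170.4-fold lower in KO (60.8 to 581). The ratio intervals of the neighbouring events overlapped, and whether their ratios differ was not tested. Reads that are not whole arise because the authors' software shares reads between neighbouring events. Intervals cover counting error only, and they take reads as independent, although copies made by PCR were not told apart by molecular tags.

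Summed over both, the H3K4me3 region of 462 bp had 7.4 scaled KO reads and 783 WT reads, a KO-to-WT ratio of 0.00945 (0.00536 to 0.0154). That is 106-fold lower in KO (65.0 to 187). Of all H3K4me3 events listed in the series, 88.2% were higher in WT, and of those on chromosome 12, 52.7% were. The direction alone therefore did not set the Dicer1 events apart, whereas their size was uncommon within their list, as described next.

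**Figure D1:**
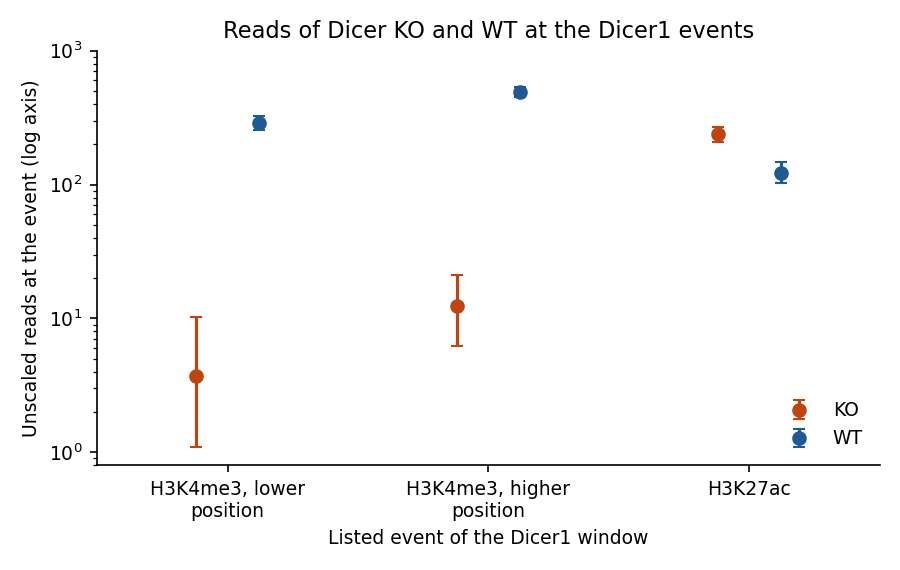
Unscaled reads at the 3 listed events of the Dicer1 window (vertical log axis), for KO (orange, left) and WT (blue, right). Bars are exact 95% Poisson intervals, which cover counting error only. KO has 3.69 and 12.4 reads at the H3K4me3 events, where WT has 290 and 493, and 239 reads at the H3K27ac event, where WT has 123.

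The median event of the WT-higher H3K4me3 list had a KO-to-WT ratio of 0.332, and its median number of WT reads was 558, above that of both Dicer1 events. In this list 12 of 5542 events had a lower KO-to-WT ratio than the event at 105931999, and 43 had a lower one than the event at 105932460. Among the 3076 events with at least as many WT reads as 105932460, 10 had a lower ratio. A difference of at least 50-fold, a limit chosen after the values were seen, was reached by 1.66% of the list and by 10.1% of its events on chromosome 12, or 7 of 69, which include both Dicer1 events.

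With events at most 5 kb apart joined, the WT-higher H3K4me3 list formed 2354 regions, and the Dicer1 region was the one with the 9th lowest KO-to-WT ratio. Of the 1442 regions with at least as many WT reads, 2 had a lower ratio. A difference of at least 50-fold was seen in 26 regions, or 1.1% of them. Near-complete loss of H3K4me3 reads in KO was thus also listed elsewhere in the genome. The lowest ratio was 0.00201, on chromosome X from 149471006 to 149471756, with 1.4 scaled KO reads and 695 WT reads. The region from 68759400 to 68760146 on chromosome 15 was close to Dicer1, with 6.9 scaled KO reads, 728 WT reads and a ratio of 0.00947.

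**Figure D2:**
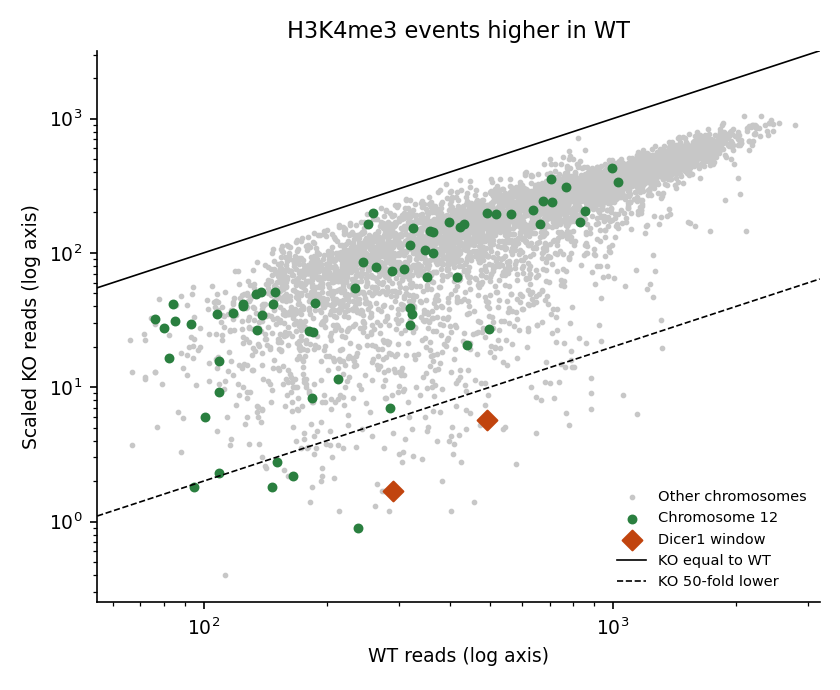
Scaled KO reads (vertical log axis) against WT reads (horizontal log axis) for the H3K4me3 events higher in WT, 1 point per event, leaving out 1 event with 0 KO reads. The diamonds are the Dicer1 events, at 5.7 and 1.7 scaled KO reads, and both lie below the dashed line of a 50-fold difference, with 5 other events of chromosome 12.

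The KO reads at the Dicer1 H3K4me3 events were also few against an expected number of reads that was taken as the knockout's own. The H3K4me3 and H3K27ac lists give a single expected number of reads for each chromosome, which the sources used here do not define. For H3K4me3 on chromosome 12 it was 84.1 in KO and 54.5 in WT. KO reached 4.38% of its expected number at 105931999 and 14.7% at 105932460. WT stood at 5.32 and 9.05 times its own. Across the WT-higher H3K4me3 list KO reached a median of 320% of its expected number, and it was below 100% at 17.7% of the events and at 30 of the 69 on chromosome 12. A lower percentage than at 105931999 was seen at 19 events, and a lower one than at 105932460 at 135.

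A question for this locus is whether the WT-higher events can reflect sequence deleted in KO. The measurements that bear on it are the KO reads left at the events and the extent of the listed loss. KO reads were few but present at both H3K4me3 events, and over the region they summed to 16.1 unscaled reads. At 105931999 and 105932460 they were 4.38% and 14.7% of the expected number taken for KO. Where these reads lay around each event was not determined. The listed H3K4me3 loss covered 2 events 461 bp apart. Only events past the authors' threshold are listed, so this spacing does not give the length of sequence affected. The H3K27ac event 6769 bp from the nearer of them had 239 KO reads. Sequence at or near that position was therefore present in KO, on a number of copies that was not determined. Since no input or other unenriched DNA of either genotype was used here and the labels do not give the deleted part, removed sequence and a loss of the mark on sequence that remains cannot be told apart at the H3K4me3 events.

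The H3K27ac event at 105939229 on chromosome 12 went the other way. It had 239 KO reads (210 to 271) and 123 unscaled WT reads (102 to 147), which at the scale of the list are 104.5 WT reads. The KO-to-WT ratio was 2.29 (1.83 to 2.87). Of all listed H3K27ac events 82.5% were higher in KO, and of those on chromosome 12, 95.7% were, so the direction of this event was that of most events around it. Its size was modest, since 79.1% of the 8323 events in its list and 82.2% of those on chromosome 12 had a higher ratio. A KO level at least 2-fold that of WT was reached by 89.7% of the list and by 90.2% of its events on chromosome 12.

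Assigned to genotypes in the same way, the expected reads of H3K27ac on chromosome 12 were 135 in KO and 93.6 in WT. Their ratio was 1.44, and relative to the median chromosome this ratio was 1.27, the highest of 20 chromosomes. In units of each genotype's own expected reads, the ratio of the Dicer1 H3K27ac event was 1.35 (1.08 to 1.69). On this scale KO stood at 177% of its expected number and WT at 1.31 times its own. The part of this chromosome-wide difference in the event was not tested. For H3K4me3 the expected ratio on chromosome 12 was 1.20 relative to the median chromosome, also the highest, and the summed ratio of the Dicer1 region was 0.0133 on that scale.

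Within the Dicer1 window the marks therefore ran in opposite directions, at events spread over 7230 bp. Both directions were those of most listed events: 88.2% of H3K4me3 were higher in WT and 82.5% of H3K27ac higher in KO. On chromosome 12 these shares were 52.7% and 95.7%. Of the 26 H3K4me3 regions at least 50-fold lower in KO, the Dicer1 region was the only one with a KO-higher H3K27ac event within 10 kb, while 9 of the 26 had a WT-higher H3K27ac event within 10 kb and 7 had one within 1 kb. These counts were not tested. Over all 2354 regions, 30 had a KO-higher H3K27ac event within 10 kb (1.27%, exact 95% interval 0.861 to 1.81). On chromosome 12, 3 of 43 regions had one. A WT-higher H3K27ac event lay within 10 kb of 211 of the 2354 regions (8.96%) and within 1 kb of 182 (7.73%). Among the 26 regions these shares were 34.6% and 26.9%. No WT-higher H3K27ac event was listed in the Dicer1 window, and the event with fewest WT reads in that list on chromosome 12 had 124 reads, and the one with fewest in the whole list had 110.0. The smallest loss that could have been listed is not known.

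The place of the events within the gene can be limited but not read off, since the annotation used here is of another build. In RefSeq, Dicer1 is 64.2 kb long and lies on the minus strand, so its start is at its high-coordinate end. If the whole gene lies in the window of 110 kb, as the rule that names the window implies, its start lies at 105964229 or above. The H3K4me3 events would then be at least 31.8 kb and 32.2 kb downstream of the start, and the H3K27ac event at least 25 kb downstream. The events would thus not be at the CG-rich promoter printed above. Whether they lie in an exon, in an intron or beyond the last exon was not determined. In the upper 45.8 kb of the window, where the start would lie, 0 events of the 6 lists were found. If the start and the bases before it lie there, no difference between KO and WT at the Dicer1 promoter passed the authors' threshold. An unlisted site was not shown to be equal in both genotypes.

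H3K36me3, the mark of transcribed gene bodies, had no listed event in the Dicer1 window. For this mark the listed event with fewest reads on chromosome 12 had 19 reads in the KO-higher list and 32 in the WT-higher list. The smallest difference that could have been listed along Dicer1 is not known. Of the H3K36me3 events listed on chromosome 12, 88.9% were higher in KO, against 33.8% in the whole series. The nearest H3K36me3 event lay outside the window at 106038232 on chromosome 12, with 5.1 scaled KO reads and 37 WT reads and a ratio of 0.138 (0.0271 to 0.435). RefSeq places Clmn, then Syne3, as the next protein-coding genes on that side of Dicer1 and Gsc on the other, but the event was assigned to no gene.

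Within 1 Mb on each side of the window the lists held 8 further events, of which KO was higher at 4 and WT at the other 4. The share higher in WT depended on the flank taken: it was 80.0% of 5 events within 500 kb, 50% within 1 Mb and 38.5% of 13 events within 2 Mb. Over all marks this share was 49.7% in the series and 11.6% on chromosome 12. The marks pooled here differ in usual direction, with 88.2% of H3K4me3, 17.5% of H3K27ac and 66.2% of H3K36me3 events higher in WT over the series. The H3K4me3 events among them were also higher in WT, but by far less. The one at 105711345 had 42.4 scaled KO reads and 187 WT reads, a ratio of 0.227 (0.175 to 0.293). The one at 106102979 had 76.0 scaled KO reads and 309 WT reads, a ratio of 0.246 (0.203 to 0.298). Neither interval overlapped those of the Dicer1 events, so the depth of the loss at Dicer1 was not shared by the nearest listed H3K4me3 sites, within counting error.

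H3K27ac events in the flanks were higher in KO, like the event in the window. The nearest, at 105800111, had 235 KO reads and 62.9 scaled WT reads, a ratio of 3.74 (2.87 to 4.92). The 2 others, at 105240443 and 105241542, had ratios of 1.72 (1.35 to 2.19) and 3.30 (2.72 to 3.99). The ratio of the Dicer1 event lay between the lowest and the highest of these 3, and its interval overlapped those of the events at 105240443 and 105241542.

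**Figure D3:**
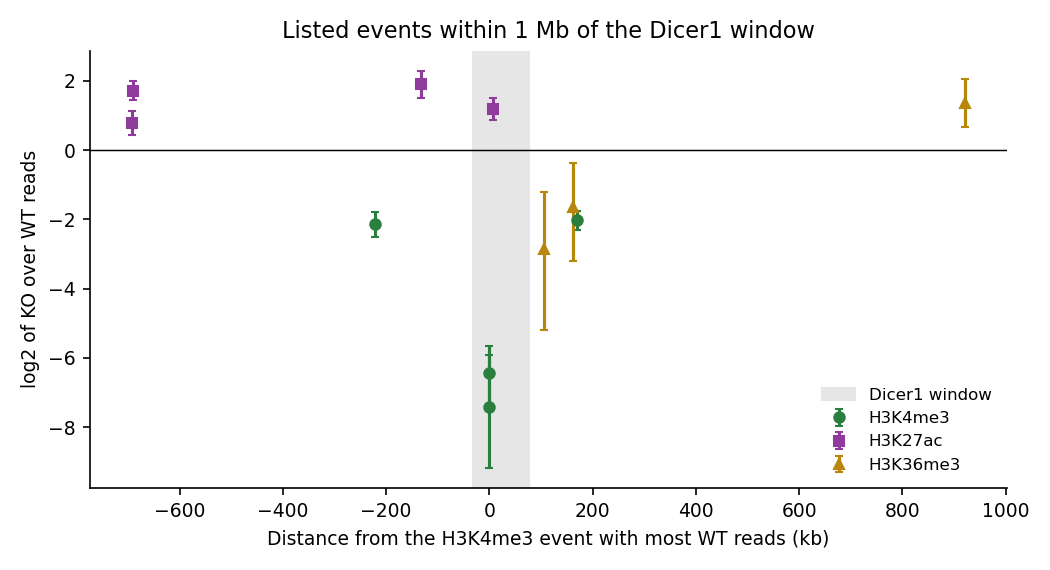
The log2 of KO over WT reads (vertical axis) for listed events within 1 Mb of the Dicer1 window (grey band), by distance from the H3K4me3 event with most WT reads (horizontal axis, kb). Bars are 95% counting intervals. The 2 Dicer1 H3K4me3 events overlap at a distance near 0 and sit at -6.44 and -7.41, below every other point, while all H3K27ac events lie above 0.

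Places with the pattern of the Dicer1 window, H3K4me3 higher in WT and H3K27ac higher in KO with no other list present, were sought among tiles of the same length. Of 5982 tiles with any event, 130 held events of exactly these 2 lists. Likeness was the sum of the absolute differences in log2 ratio and in log2 number of events over both lists, where 0 would be identical. The nearest tile, from 37840001 to 37950000 on chromosome 18, was at 4.24, and its H3K4me3 ratio was 0.120 against 0.00945 at Dicer1. The next were 93170001 to 93280000 on chromosome 2 (4.32), 83380001 to 83490000 on chromosome 6 (4.40), 37950001 to 38060000 on chromosome 16 (4.58) and 144430001 to 144540000 on chromosome 5 (4.86). In these 5 tiles the H3K4me3 ratio lay between 0.0473 and 0.129, so none came near that of Dicer1.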

How the data were processed

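The members and lists were chosen with earlier results of these data known. Alignment was to mm9 and TopHat 1.4 is named without its role, per the submitters' processing notes. The 6 deposited lists, 2 for each mark, hold events predicted by GPS or GEM, per the file names, with the higher genotype as immunoprecipitate and the other as control. H3K27ac replicates were pooled, per the file names. Per the file headers, each deposited event has an estimated count of reads, a scaled control signal, a fold (ratio), an expected signal and −log10 q and p values, with −log10 q of at least 2 throughout. The authors' q values were used only as a filter.

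The control factor was recovered as the step between 0.3 and 3 (every 0.0005) at which the share of control values below 40 that were whole, within 0.06 file units, most exceeded chance, among events with a whole count. It was 0.461 for KO in the WT-higher H3K4me3 list (85.8% whole) and 0.85 for WT in the KO-higher H3K27ac list (77.8% of 45 values whole). The product of the factors from both lists of a mark was 0.9895 for H3K4me3 and 0.9299 for H3K27ac. The factors were thus not exactly reciprocal, and the intervals do not cover error in them. The step search, intervals and joining were tested on simulated data. Ratios are KO over WT at the authors' scale, with exact conditional binomial (Clopper-Pearson) 95% intervals of the unscaled, rounded reads. Read numbers have exact Poisson intervals. Every event of the window is described, and the 5 most like tiles are named. The 50-fold limit and the counts of regions near other marks were chosen after seeing the data. Library totals are unknown. Computation used SciPy 1.17.1, pandas 2.3.3 and NumPy 2.4.6 under Python 3.11.15, and plots were drawn with matplotlib 3.10.9.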

Additional observations from a re-analysis of the deposited data

How the results depend on the processing

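Of 59 alternative values, 52 stayed within the limits set for them, but many of the 59 could not have moved. The filters, at least 50 reads in the higher genotype or −log10 q of at least 5, removed no event of the window. A count of 0 could not rise under a filter or by joining events. The tally is therefore not a measure of robustness. No ratio crossed 1. The share of flank events higher in WT, 50% within 1 Mb, was 80.0% within 500 kb and 38.5% within 2 Mb. These lie on opposite sides of an even split, with 5 and 13 events, yet both were counted as within the limits. Joining events within 5 kb turned the 2 H3K4me3 events into 1 region. With unscaled reads the summed H3K4me3 ratio was 0.0205, against 0.00945 at the authors' scale. In units of own expected reads the H3K27ac ratio was 1.35, against 2.29. On chromosome 12 alone, 1.45% and 2.90% of WT-higher H3K4me3 events had a lower ratio than those at 105931999 and 105932460, and 82.2% of KO-higher H3K27ac events had a higher ratio than that at 105939229. Widening the window by 50 kb at each end brought in 1 WT-higher H3K36me3 event. The cause of these changes was not tested. No paired analysis was possible because replicates are pooled or not separated in every list, which also means that none could be left out. For H3K36me3 no ratio could be formed in the window. The H3K4me3 ratios rest on 16.1 KO reads, which limits their precision.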

Other observations

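Chromosome 12 held another WT-higher H3K4me3 event with a lower KO-to-WT ratio than those of Dicer1. It lay at 50484412, with 0.9 scaled KO reads and 239 WT reads, a ratio of 0.00377. A single event at 85758223 on the same chromosome, with 1.8 scaled KO reads and 95 WT reads, had a ratio of 0.0189. Of the 43 WT-higher H3K4me3 regions of chromosome 12, 6 had a WT-higher and 2 a KO-higher H3K36me3 event within 10 kb. Over all 2354 regions, 388 (16.5%) had a WT-higher and 5 (0.212%) a KO-higher one. The Dicer1 region had neither, like most regions.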
